A study of Komagataella phaffii with 12 samples.

Results

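Open chromatin close to the chromosome ends of the yeast Komagataella phaffii was examined in the peak lists of 10 FAIRE-Seq libraries. A peak was taken as an end peak when its midpoint lay within 100 kb of the start of a chromosome or of the highest coordinate that any list gives for it, and the mitochondrial peaks were left out. This gave 221 end peaks of 3182 nuclear peaks, and of 3186 peaks in all. Of these, 142 were in lists of the wild-type strain (WT) and 79 in lists of the strain with a disrupted FLO8 gene (flo8Δ). Overlapping peaks (1 bp or more) of any libraries were merged into loci, and 41 of the 665 nuclear loci were end loci. The 8 ends hold 800 kb of 9367.04 kb, which is 8.54% of the sequence. The peaks just inside the limit lay 99.522 kb from an end, and the nearest ones outside it lay at 101.029 kb.

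FAIRE-Seq recovers and sequences the DNA that stays in the aqueous phase when formaldehyde-fixed, sheared chromatin is extracted with phenol, and peaks mark DNA poor in nucleosomes. All cells were K. phaffii CBS7435 in glucose-limited chemostats, sampled after 5 residence times at each rate. The WT libraries were 2 at the fast growth rate (0.1 per hour), 2 at the slow growth rate (0.05 per hour) and 2 after the switch back to 0.1 per hour (switchback). The flo8Δ libraries, from CBS7435 with FLO8 disrupted and grown in the same way, were 2 fast, 1 slow and 1 switchback, so the latter groups have no replicate. The rates were run in turn within a chemostat and no label ties a library to a culture, so p-values measure only the spread between libraries. An input control, fixed chromatin decrosslinked before the extraction, came from each strain.

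Yeast chromosomes end in telomeric repeats, and the sequence next to them is often rich in repeated elements and gene families that differ between strains. In Saccharomyces cerevisiae, silencing proteins spread inward from telomeres over histones and lower transcription of nearby genes, and several FLO genes, which encode cell wall adhesins, lie near chromosome ends. Flo8 is a transcription factor known there for its part in FLO gene expression and filamentous growth. Loci are given here by position only, on the CBS7435 genome of the lists counted from 1, since no gene annotation of that genome was used.

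No list gives read counts, and sequencing depth is therefore unknown. Nuclear list length ran from 199 to 382 peaks in WT and from 149 to 509 in flo8Δ, and the flo8Δ switchback list was the shortest. The WT lists have 5 columns and the flo8Δ lists have 10 in a different caller's format, so strain and list format cannot be told apart in any comparison of the strains below. Scores were compared only as ranks within a list, where rank 1 is the highest score and the percentile 100 belongs to it.

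With every peak counted, the ends of WT chromosomes held about as many peaks as their share of the sequence, and the ends of flo8Δ chromosomes held fewer than that share in each of 4 lists. Without the peaks over an input region, described further on, the ends held fewer than their share of the sequence in all 6 WT lists too, with a mean of 7.43% (6.50% to 8.20%). In WT, the fast libraries had 21 and 18 end peaks, the slow libraries 19 and 28, and the switchback libraries 28 and 28. These were 9.59% and 9.05%, 9.36% and 7.33%, and 7.87% and 8.09% of the nuclear peaks of each list. In flo8Δ, the fast libraries had 22 and 20 end peaks (4.75% and 5.62%), the slow library 26 (5.11%) and the switchback library 11 (7.38%). Every WT share but that of slow 2 was above every flo8Δ share. The 95% Clopper-Pearson interval, which covers counting error over peaks only, held the 8.54% share of the sequence in all WT lists and in flo8Δ fast 2 and switchback, with bounds of 3.47% to 8.54% in fast 2. It lay below that share in flo8Δ fast 1, at 3.00% to 7.11%, and in flo8Δ slow 1, at 3.36% to 7.40%.

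**Figure D1:**
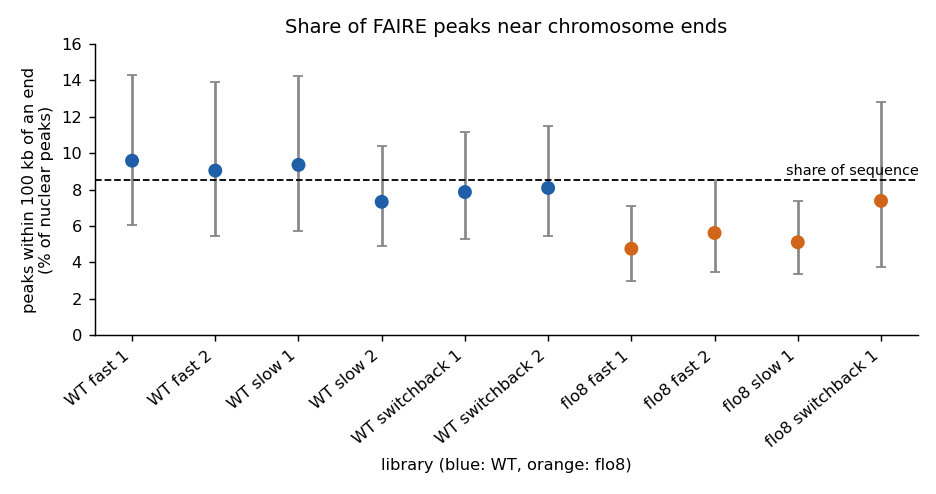
Percent of nuclear FAIRE peaks whose midpoint lies within 100 kb of a chromosome end, for each of the 10 libraries (blue WT, orange flo8Δ); grey bars are 95% Clopper-Pearson intervals and the dashed line is the 8.54% of sequence that the ends make up. WT points run from 7.33% to 9.59%, around the line, and flo8Δ points from 4.75% to 7.38%, below it.

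Counted per length, WT libraries had 2.96 ± 0.606 peaks per 100 kb at the ends and 3.04 ± 0.944 in the interior (mean ± SD, n = 6). The difference was -0.08 ± 0.37 peaks per 100 kb, with the ends higher in 3 libraries and lower in 3 (exact two-sided sign-flip permutation test, p = 0.656). The flo8Δ libraries had 2.47 ± 0.793 at the ends and 4.08 ± 1.80 in the interior (n = 4). Their ends were lower in 4 of 4 libraries, with a difference of -1.61 ± 1.02 peaks per 100 kb, and the exact p of 0.125 is the smallest that 4 libraries allow. Over all 10 libraries the ends were lower in 7, the mean difference was -0.694 ± 1.02, and it did not pass (exact p = 0.0586, adjusted over 4 measures p = 0.234). The difference did pass once peaks over an input region were left out (-0.966, lower in 10 of 10 libraries, exact adjusted p = 0.00781), and with ends of 50 kb (-0.937, exact adjusted p = 0.0195). In WT alone, leaving those peaks out gave -0.456 ± 0.370, lower in 6 of 6 libraries, with an exact p of 0.0312 that is the smallest 6 libraries allow (adjusted over 4 measures, p = 0.0833). Peaks over input were 17.2% of end peaks and 5.58% of interior peaks (means of 10 libraries), so leaving them out lowers the ends more. The sequence under input regions was still counted in the lengths.

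No difference between end and interior peaks passed in the other measures. End peaks covered 3.29% ± 0.526 of the end sequence in WT, where interior peaks covered 3.28% ± 0.794 of theirs. In flo8Δ the values were 0.687% ± 0.190 and 1.02% ± 0.448. Median peak width was 998 ± 75.7 bp at WT ends and 987 ± 57.8 bp in the WT interior, and it was 244 ± 24.2 bp and 230.2 ± 6.40 bp in flo8Δ. The median score percentile of end peaks was 54.0 ± 9.61 in WT and 48.0 ± 7.55 in flo8Δ, where all peaks of a list centre near 50. None of these 3 differences passed over the 10 libraries (exact adjusted p from 0.365 to 0.635). The best end peak of each list had ranks of 2 to 18 in WT and 1 to 15 in flo8Δ. Each is the best of 11 to 28 end peaks of its list, and these ranks were not tested.

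The 8 ends differed from one another. The left end of chromosome 1 held the most peaks, 4.30 ± 0.949 per 100 kb over 10 libraries, with a lowest count of 3, a median of 4 and a highest of 6. The right ends of chromosomes 3 and 1 followed with 3.40 ± 1.35 and 3.30 ± 0.823, and then the left end of chromosome 4 with 2.80 ± 0.789. The right ends of chromosomes 2 and 4 held 2.60 ± 1.58 and 2.50 ± 1.18. Fewest peaks lay at the left ends of chromosomes 2 and 3, with 1.70 ± 0.823 and 1.50 ± 0.707. No end differed from its neighbour in this order beyond the spread of the libraries, but 11 of the 28 pairs of ends passed (exact sign-flip permutation tests, adjusted over 28). Of those 11 pairs, 5 set the left end of chromosome 1 above another end.

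**Figure D2:**
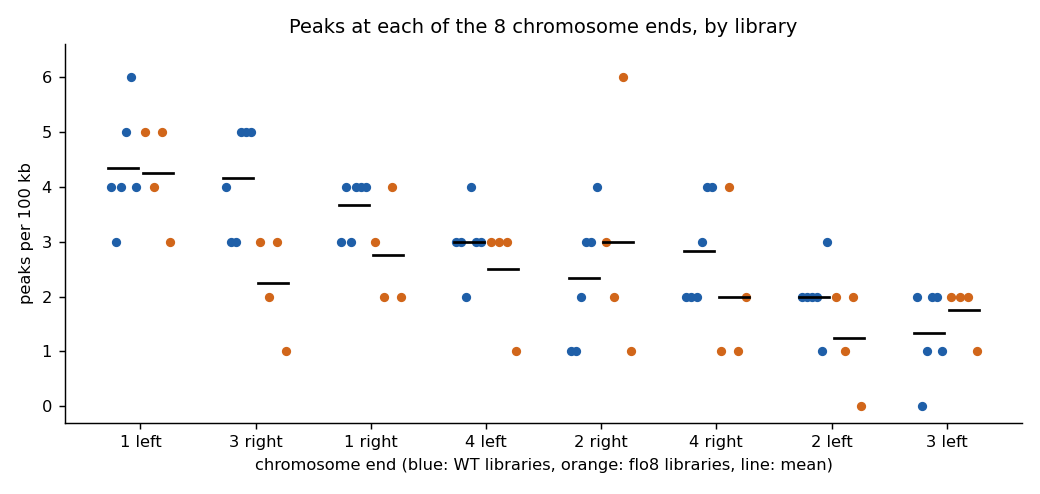
Peaks per 100 kb at each of the 8 chromosome ends, ordered by their mean, with 1 point per library (blue WT, orange flo8Δ) and a black line at each strain's mean. The left end of chromosome 1 has 3 to 6 peaks in every library, and the left ends of chromosomes 2 and 3 have 0 to 3.

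Against the interior of the same library, the left ends of chromosomes 2 and 3 were the poorest. The left end of chromosome 2 was below the interior in 10 of 10 libraries, with a difference of -1.76 ± 1.36 peaks per 100 kb, and the left end of chromosome 3 in 10 of 10, at -1.96 ± 1.06 (both exact adjusted p = 0.00781). These differences passed in every fit that left out 1 library, and missed the threshold only for chromosome 3 with ends of 25 kb (-1.01, exact adjusted p = 0.102). The left end of chromosome 1 was above the interior in 8 of 10 libraries, by 0.844 ± 0.935 (exact adjusted p = 0.0430), and the right end of chromosome 2 was below it in 8 of 10, at -0.856 ± 0.850 (exact adjusted p = 0.0417). Leaving out any library other than flo8Δ slow 1 ended the call at the left end of chromosome 1 (0.696 to 1.01), while all 6 other settings of score, end window and input kept it with larger values, from 1.02 without peaks over input to 4.59 with ends of 25 kb (exact adjusted p from 0.00260 to 0.0234). At the right end of chromosome 2, 8 of 10 fits without a library ended the call (-0.992 to -0.713). The other 4 ends did not pass, at -0.06 for 3 right, -0.16 for 1 right, -0.66 for 4 left and -0.96 for 4 right. At 3 right and 1 right these pooled values join opposite ones, 1.13 and 0.626 in WT and -1.83 and -1.33 in flo8Δ. The difference at 1 left was 1.29 in WT and 0.170 in flo8Δ. Within a strain no end passed (sign-flip tests, exact adjusted p of 0.0625 or more in WT and 0.25 or more in flo8Δ). The 6 WT libraries allow no exact sign-flip p below 0.0312. In WT the ends 1 left and 3 right, above the interior, and 2 left and 3 left, below it, reached that p. In flo8Δ the 4 libraries allow no exact p below 0.125. The lack of calls within a strain therefore does not show a lack of difference. Without peaks over an input region, the right end of chromosome 4 was at -2.58 and passed (exact adjusted p = 0.00521). The left end of chromosome 4 turned to 2.16 above the interior with ends of 50 kb (exact adjusted p = 0.00260), and all 5 of its loci lay within 50 kb of the end.

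Within each end the loci were unevenly spread. On the left end of chromosome 3 only 2 loci were found, at 15.9 kb and 96.9 kb from the end, with 79.7 kb between them that held no peak of any of the 10 libraries. The left end of chromosome 4 was empty from 49.5 kb inward to 100 kb, a stretch of 50.5 kb. On the right end of chromosome 1 the outermost 48.1 kb held no peak, and on the left end of chromosome 2 the outermost 36.4 kb held none. The right end of chromosome 4 was empty between 21.4 and 63.5 kb. The lengths used are the highest coordinates in the lists, which may fall short of the real ends.

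**Figure D3:**
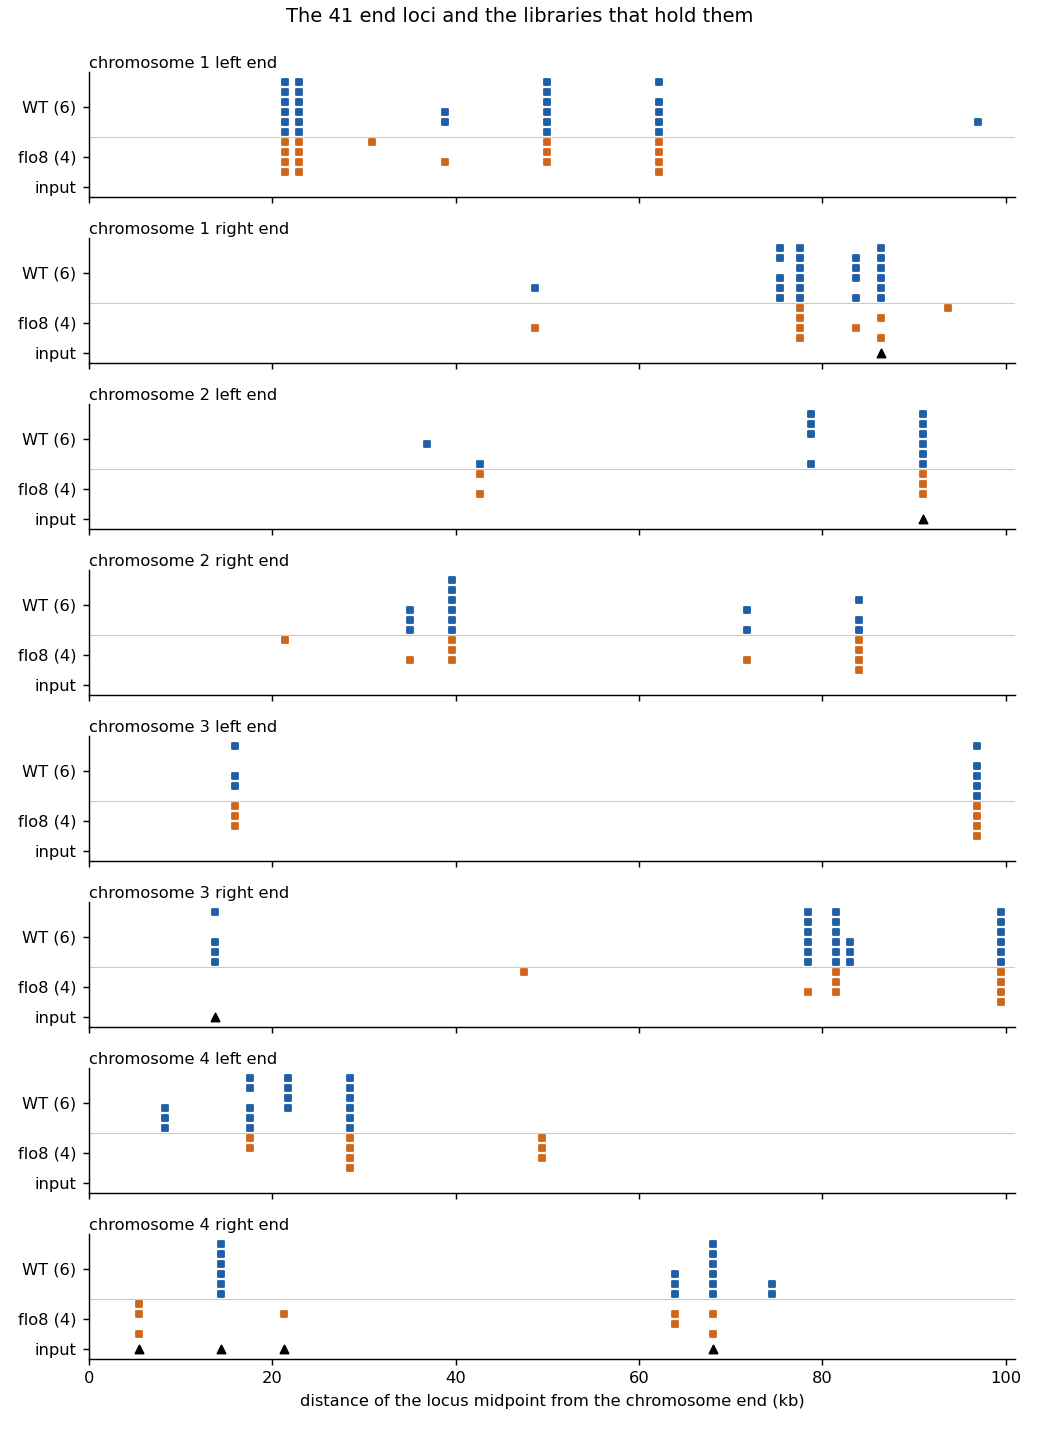
Position of each of the 41 end loci, as the distance of its midpoint from the chromosome end in kb, in 1 panel for each end; a square marks each library that holds the locus (blue WT, in the order fast, slow, switchback from the top; orange flo8Δ in the same order) and a triangle marks a locus over an input region. Full columns of squares stand at 21.3 and 22.9 kb on 1 left, 28.5 kb on 4 left, 77.5 kb on 1 right and 99.5 kb on 3 right, and the left end of chromosome 3 is empty between its 2 loci.

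Taken over the 8 ends together, peaks were scarce in the outermost 10 kb and again midway. The outermost 10 kb held 0.750 ± 0.645 peaks per 100 kb (n = 10 libraries), from 2 loci on chromosome 4, at 8.3 kb on the left end and 5.4 kb on the right. Between 20 and 30 kb the density was 4.62 ± 0.604, from 6 loci on 4 of the ends. It was 0.625 ± 0.659 between 50 and 60 kb, where a single locus lay, and 4.12 ± 1.96 between 70 and 80 kb. These bins are described without a test. The inner 50 kb of the ends held 3.05 ± 0.762 and the outer 50 kb 2.48 ± 0.845 peaks per 100 kb, higher in the inner part in 7 of 10 libraries (exact p = 0.0703). In WT these were 3.42 and 2.50 (exact p = 0.0625), and in flo8Δ 2.50 and 2.44 (exact p = 1).

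**Figure D4:**
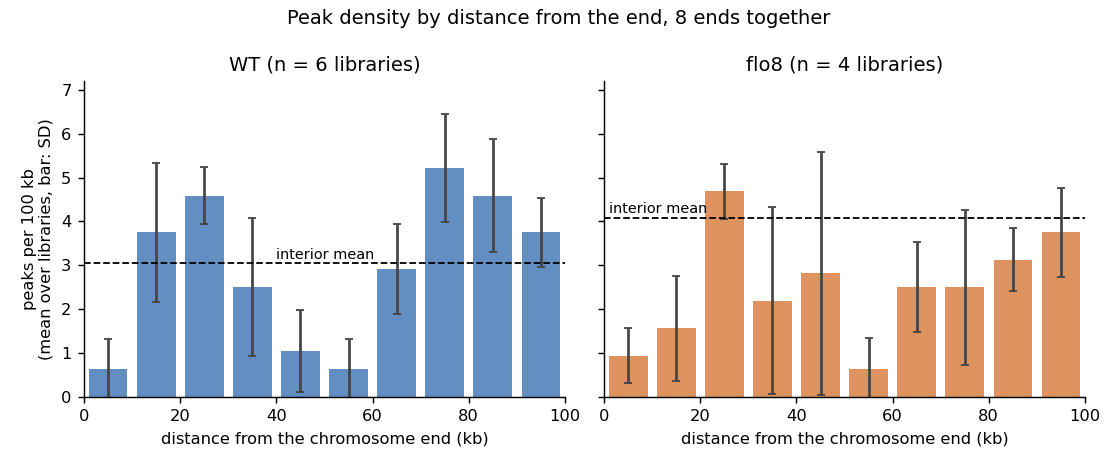
Peaks per 100 kb in 10-kb steps of distance from the chromosome end, 8 ends together, as the mean over libraries with the SD as bar, for WT (left, n = 6) and flo8Δ (right, n = 4); the dashed line is each strain's interior mean, 3.04 and 4.08. Both strains have a high step at 20 to 30 kb, 4.58 and 4.69, and a low one at 50 to 60 kb, 0.625 in each.

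Of the 41 end loci, 5 carried a peak in all 10 libraries (12.2%), a share near the 11.1% of all 665 nuclear loci that did. With the 149 best peaks of each list, 1 end locus did. The first, chr1:20625-22009, lay 21.3 kb from the left end. Its WT ranks were 12 and 12 at fast, 18 and 12 at slow, and 10 and 2 at switchback, among the highest of each list. In flo8Δ it ranked 74 and 139 at fast, 200 at slow and 111 at switchback, lower in every list than in any WT list. The median width of its peaks was 1322 bp in WT and 676.5 bp in flo8Δ.

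The second, chr1:22332-23562, began 322 bp further inward and ranked 102, 65, 44, 44, 35 and 40 in WT and 42, 40, 84 and 50 in flo8Δ, in the order fast, slow, switchback. This pair is the closest set of loci held by every library at any end, and its flo8Δ fold enrichments over control, as the authors' caller gave them, were 2.93 to 3.90 at the first and 3.22 to 3.92 at the second. The next, chr4:27585-29384, lay 28.5 kb from the left end of chromosome 4. It ranked from 97 to 163 in WT, and 78, 38, 15 and 12 in flo8Δ, where it was among the best of the slow and switchback lists.

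The remaining widely held loci were on right ends. At chr1:2812852-2814466, 77.5 kb from the end, the WT ranks ran from 45 to 254 and the flo8Δ ranks were 98, 126, 272 and 90. At chr3:2156046-2157068, 99.5 kb from the end and just inside the 100 kb limit, WT ranks ran from 97 to 219, which is the last place of the WT fast 1 list, and flo8Δ ranks were 160, 197, 190 and 93. Without the flo8Δ switchback library, the shortest list, 9 end loci were held by all the others, and the share of all nuclear loci is not given.

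**Figure D5:**
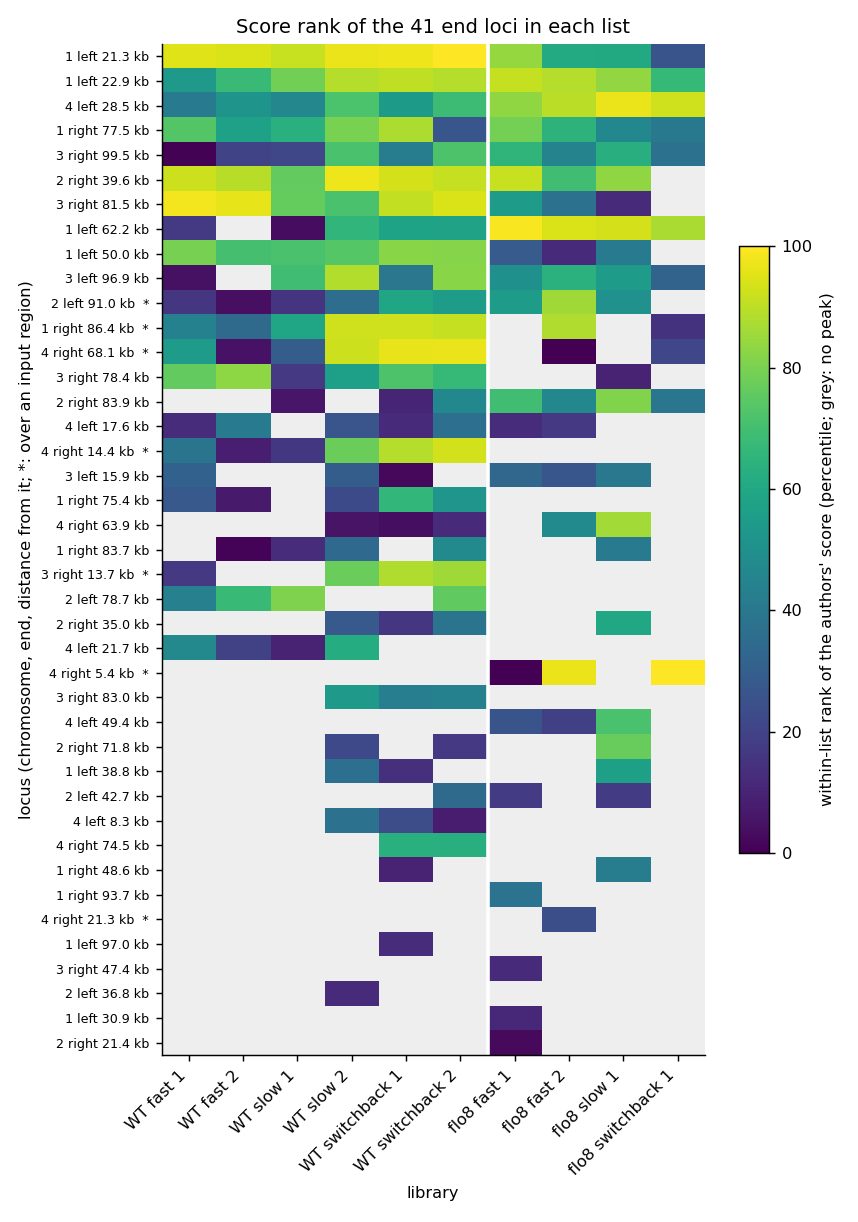
Within-list rank percentile of the authors' score for each of the 41 end loci (rows, ordered by the number of libraries that hold them) in each of the 10 libraries (columns; the white line parts WT from flo8Δ); grey means no peak and a star marks a locus over an input region. The upper rows, held by all 10 libraries, include the locus 21.3 kb from the left end of chromosome 1, between 91.6 and 99.7 in WT and lower in flo8Δ.

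Other loci were held by 9 libraries. The locus chr2:2358803-2360562, 39.6 kb from the right end, was missing only in flo8Δ switchback and had the highest mean percentile of all end loci, 87.1, with WT ranks of 18, 22, 50, 10, 24 and 32 and flo8Δ ranks of 40, 110 and 85. The locus chr1:61690-62700, 62.2 kb from the left end and chosen after its values were seen, went the other way from the locus at 21.3 kb. Its flo8Δ ranks were 6, 21, 33 and 20, near the top of each list, while its WT ranks were 183 in fast 1, none in fast 2, 197 and 131 at slow, and 151 and 147 at switchback. At chr3:96012-97781, 96.9 kb from the left end, 9 libraries held a peak, and only WT fast 2 did not. The locus chr2:90473-91430, 91.0 kb from the left end of chromosome 2, was held by all 6 WT lists at ranks 146 to 246, and by flo8Δ fast and slow at 209, 52 and 253. It lay over a region of the flo8Δ input, which its WT peaks overlapped and its narrower flo8Δ peaks did not.

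The outermost locus of an end was held by 1 to 10 libraries. At the left end of chromosome 1 it was the locus at 21.3 kb that every library held, and at the right ends of chromosomes 3 and 4 the outermost loci, at 13.7 and 5.4 kb, were held by 4 and 3 libraries. At the left end of chromosome 2 it was chr2:36356-37266, in WT slow 2 alone, and at the right end chr2:2377825-2378012, in flo8Δ fast 1 alone. At the right end of chromosome 1 the outermost locus, chr1:2842144-2843050, was held by WT switchback 1 and flo8Δ slow 1. At the left end of chromosome 3, chr3:15375-16352 was held by 3 WT and 3 flo8Δ libraries. At the left end of chromosome 4, chr4:7777-8725 was in WT slow 2 and both WT switchback lists. In all, 7 end loci (17.1%, beside 20% of all nuclear loci) had a peak in a single library, 4 of them in flo8Δ fast 1.

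The presence of the 41 end loci was then set against the strain. Both strains held 24 of them (58.5%, beside 56.1% of all nuclear loci). WT alone held 10 (24.4%, beside 18% of all) and flo8Δ alone 7 (17.1%, beside 25.9% of all). All 6 WT libraries held 13 (31.7%, beside 19.4% of all) and all 4 flo8Δ libraries 8 (19.5%, beside 21.1% of all). The differences between these shares were not tested. Without flo8Δ slow 1 the loci in WT alone numbered 16, without flo8Δ fast 1 those in flo8Δ alone numbered 3, and without flo8Δ switchback the loci in every flo8Δ list numbered 14. The count in all 6 WT lists stayed between 13 and 15 whichever library was left out. Shares over all nuclear loci are not given for the fits without a library.

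One end locus was in all 6 WT lists and in no flo8Δ list (0.602% of all nuclear loci showed this pattern), and 0 were in all 4 flo8Δ lists and no WT list (0.15%). That WT locus, chr4:1805577-1806499, lay 14.4 kb from the right end of chromosome 4 and over a region of both input lists. Its ranks were 136 and 183 at fast, 171 and 87 at slow, and 40 and 24 at switchback. With Fisher's exact test and Benjamini-Hochberg adjustment over the 665 loci, 0 end loci were called between the strains (0% of all nuclear loci were called), and the smallest adjusted p was 0.341. Before adjustment, 3 of the 41 end loci were more often in WT (beside 2.71% of all nuclear loci) and 2 more often in flo8Δ (beside 8.57% of all). The smallest p that 6 against 4 libraries allow is 0.00476, and it was reached at the end loci only by chr4:1805577-1806499. Over all nuclear loci, 4 were in every WT list and no flo8Δ list, and 1 showed the reverse. With so few loci at that p, the adjustment could call none, not even a locus fully split by strain. The 0 calls therefore do not show that the strains were alike.

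The other loci with a low unadjusted p are named for their small number, after their values were seen. The locus chr1:2815349-2816274, 75.4 kb from the right end, was in 5 WT and 0 flo8Δ lists (Fisher's exact p = 0.0476 before adjustment). The locus chr3:2176982-2178285 was in 6 WT lists and in flo8Δ slow 1 alone, where it ranked 460 of 509 (exact p = 0.0333 before adjustment). In flo8Δ, chr4:49247-49463 was in both fast lists and the slow list, at ranks 343, 289 and 148, and in no WT list (exact p = 0.0333 before adjustment). The outermost FAIRE locus at any end, chr4:1814770-1815257, 5.4 kb from the right end, was in both flo8Δ fast lists and the switchback list, with the same p. It was the last of 463 peaks in fast 1, rank 11 of 356 in fast 2 and rank 1 of 149 in switchback, and its fold enrichment was 1.24, 1.58 and 1.83 in the same order. It lay over regions of both input lists.

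As a share of the list, end peaks were fewer in flo8Δ than in WT. The mean share was 8.55% ± 0.911 in WT (n = 6) and 5.72% ± 1.17 in flo8Δ (n = 4). The mean of the differences within growth stages was -2.66 percentage points, and the exact two-sided p of 0.0185, with strain labels permuted within stages, is the smallest that the 54 arrangements allow (adjusted over 4 measures, p = 0.0370). The ratio of end to interior density, a restatement of the share, was 1.00 ± 0.116 in WT and 0.650 ± 0.142 in flo8Δ. This ratio, with the same exact permutation p, was 1 of the 4 measures. The adjusted p is therefore too low and is not read as a pass. The number of end peaks per 100 kb did not pass (-0.54, exact p = 0.426), nor did the median score percentile of end peaks (-6.42, exact p = 0.389). By stage, the share differed by -4.13 points at fast, -3.24 at slow and -0.60 at switchback. Without flo8Δ slow 1 or without flo8Δ switchback 1 the differences were -2.36 and -3.68, and p was 0.0556 in each exact test, the smallest that the arrangements then left allow. With the 149 best peaks of each list the difference was -2.80 (exact p = 0.0370), and without peaks over input regions it was -2.22 (exact p = 0.0185).

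No difference between the growth stages of WT in end peaks passed. The mean share was 9.32% ± 0.385 at fast, 8.34% ± 1.44 at slow and 7.98% ± 0.161 at switchback (n = 2 each), and the exact permutation p over 15 partitions, which cannot go below 0.0667, was 0.533. The mean number of end peaks was 19.5, 23.5 and 28 (exact p = 0.400 on the density). The longer lists of WT slow 2 and switchback had 28 end peaks each, and the shorter lists of fast and slow 1 had 18 to 21. Between replicates, both fast lists held 17 of the 22 loci found in either (77.3%), both slow lists 17 of 30 (56.7%) and both switchback lists 24 of 32 (75.0%), beside 66.5%, 46.8% and 64.8% in the interior. In flo8Δ fast, the replicates shared 16 of 25 end loci (64.0%), and 73.8% in the interior.

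The patterns by stage were few. No end locus was in both WT fast lists and no other WT list (0 end loci, against 0.301% of all nuclear loci), none in all 4 WT slow and switchback lists but not at fast (0, against 1.95%), and none in both slow lists only (0, against 0.602%). One was in both switchback lists and no other WT list (2.44%, beside 2.11% of all nuclear loci), chr4:1745213-1746662, 74.5 kb from the right end, at ranks 131 and 130. These counts moved with single libraries. Without WT slow 1 the loci in every remaining slow and switchback list but not at fast numbered 4, without WT fast 1 they numbered 2, and without WT slow 2 they numbered 1. The loci in switchback only numbered 5 without WT slow 2, 3 without switchback 2, and 2 without slow 1 or without switchback 1. For these fits too, shares over all nuclear loci are not given.

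Some WT end loci were found only in the longer lists. Of the 41 end loci, 11 were found in WT only in the 3 longer lists, slow 2 and both switchback lists, a pattern that 32.6% of all nuclear loci showed. Counted over the loci that WT held, these were 11 of 34 at the ends (32.4%) and 217 of 493 in all (44.0%). Of these, 4 (beside 7.82% of all nuclear loci) were in all 3 longer lists, at 35.0 kb on 2 right, 83.0 kb on 3 right, 8.3 kb on 4 left and 63.9 kb on 4 right. A further pattern, presence in all 4 fast and slow lists and neither switchback list, had 1 end locus (0.15% of all nuclear loci), chr4:21136-22191, 21.7 kb from the left end, at ranks 117 and 161 at fast and 184 and 147 at slow. This was the only nuclear locus with that pattern. These 3 patterns were chosen after the values were seen.

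Between the fast and switchback stages the number and the share of end peaks went opposite ways in each strain. WT went from a mean of 19.5 end peaks to 28, and flo8Δ went from 21 to 11, a difference of -18.5 between the changes that 2 of the 18 arrangements of the strain labels matched or exceeded (exact p = 0.111). The share of the list went from 9.32% to 7.98% in WT and from 5.18% to 7.38% in flo8Δ, a difference of 3.54 points between the changes (exact p = 0.333), and the flo8Δ switchback value is that of 1 library. All 11 end loci of the flo8Δ switchback list were in another flo8Δ list too, 8 of them in all 4. Another 6 end loci were in both flo8Δ fast lists and the slow list but not in switchback. That list was also the shortest, with 149 nuclear peaks.

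Several end loci lay over regions that were called in the input control, where no enrichment for open chromatin was made. These were 7 of 41 end loci (17.1%), against 27 of 624 interior loci (4.33%), and 4 of the 7 were on the right end of chromosome 4. The WT lists held 28 end peaks over input regions, 4 or 5 in each list. The flo8Δ lists held 8, with 1 and 4 at fast, 0 at slow and 3 at switchback. WT peaks were wider, and the part of width in these counts was not tested. In flo8Δ the fold enrichment of these 8 peaks had a median of 1.82 (1.24 to 2.71), and that of the other 71 end peaks a median of 3.04 (2.37 to 4.42). Interior peaks over input regions had a median of 2.99, near that of interior peaks elsewhere, 3.05.

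In WT the score rank of end peaks over input regions differed between the lists. Their median percentile was 38.4 and 6.78 in the fast lists, 22.9 and 77.5 in the slow lists, and 89.0 and 91.3 in the switchback lists. The other end peaks had medians of 45.2 and 62.3, 63.5 and 56.5, and 42.7 and 57.8. The locus chr4:1751801-1752904, 68.1 kb from the right end and over both inputs, ranked 100, 190, 144, 30, 13 and 11 in WT, in the order fast, slow, switchback. The locus chr1:2804329-2805240, 86.4 kb from the right end, ranked 124, 131, 84, 28, 27 and 31. The locus chr3:2241917-2242804, the outermost on its end at 13.7 kb, was in 4 WT lists at rank 184 in fast 1, 89 in slow 2, and 43 and 50 at switchback. These ranks were compared after they were seen and without a test, and the higher ones fell in the 3 longer lists.

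At the 24 end loci that both strains held, the flo8Δ peaks had a median of 21.9% of the width of the WT peaks, and 25.1% at the 349 shared interior loci. At the 18 of these loci with a peak in at least 2 flo8Δ lists, the summits of the best peaks spread over a median of 19.5 bp (0 to 216 bp), and the median at interior loci was 29.0 bp. The widest spread, 216 bp, was at chr4:1751801-1752904, over input. At chr1:22332-23562 it was 24 bp over 4 lists and at chr4:27585-29384 it was 19 bp. Some WT peaks spanned more than 1 flo8Δ peak: at chr1:2812852-2814466 the flo8Δ fast 1 list had 2 peaks 528 bp apart and the slow list 2 peaks 560 bp apart, and at chr4:27585-29384 the slow list had 2 peaks 637 bp apart.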

How the data were processed

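FAIRE-Seq peak lists of 10 libraries and region lists of 2 input controls were used as deposited. Per the methods of the study and the submitters' processing notes, the authors mapped paired-end reads with BWA 0.7.13, used SAMtools 1.3, removed reads of mapping quality below 20, and called peaks with MACS2 on pooled replicates. Reads from repeated sequence, which is common near chromosome ends, are often of low mapping quality, and the effect of that filter was not tested. Each deposited list holds 1 library. The WT lists have 5 columns with names in the style of an earlier MACS version, and their deposited score was read as 10 times the −log10 p-value from that style alone. The flo8Δ lists have the 10 narrowPeak columns, in which the authors give a score, the fold enrichment (a ratio), and the −log10 of p and q. In those lists the deposited score differed by at most 1 from 10 times the −log10 p-value. The input lists have 6 columns and a score from another caller.

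Chromosome length was the highest coordinate in any list, which came from the search windows named in the input lists. Peaks sharing at least 1 bp were merged into loci, and presence in a library meant at least 1 of its peaks in the locus. A locus or peak was over input if it shared a base with a region of either input list. End and interior densities were compared with exact two-sided sign-flip tests over libraries, strains with exact permutation of labels within stages, WT stages over all partitions, and presence of loci with Fisher's exact test. Families of tests were adjusted by Benjamini-Hochberg, with a threshold of 0.05. Shares have 95% Clopper-Pearson intervals. Named loci were all those of each presence pattern with 5 or fewer, the 3 of highest mean rank in larger ones, and for each end the outermost locus and the one held by most libraries. The ends and the patterns were chosen with earlier results of these data known. No 2 lists were identical (0 pairs). The methods were tested on simulated data with a far larger share of loci fully split by strain than in these lists. That test gives no measure of whether Fisher's exact test could call loci here. Python 3.11.15, numpy 2.4.6, pandas 2.3.3, scipy 1.17.1 and matplotlib 3.10.9 were used. Alternatives were other score limits, end windows, merging and presence rules, removal of peaks over input, a replicate block, and leaving out each library. A gene table of another strain, GS115, holds 5040 genes of which 0 carry a CBS7435 tag, so genes were not placed.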

Additional observations from a re-analysis of the deposited data

Results flagged for a closer look

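In flo8Δ, the switchback library stood apart from the other 3 at a pair of ends. At the left end of chromosome 3 it had 1 peak where each of the others had 2, and at the left end of chromosome 4 it had 1 peak where each of the others had 3. These were 2 flags among 36 groups of values. The rule, the gap to the next value over the range, flags about 1 group in 20 by chance for continuous normal values. That rate does not hold for small counts, where 1 value that differs from equal others is always flagged. This list was the shortest, with 149 nuclear peaks.

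From the fast to the switchback stage the number of end peaks changed by 8.50 in WT and by -10.0 in flo8Δ, a difference of -18.5 (exact permutation p = 0.111 over 18 arrangements). The share of the list that end peaks made up moved the other way, by -1.34 percentage points in WT and 2.20 in flo8Δ, a difference of 3.54 (exact permutation p = 0.333). The flo8Δ switchback stage has 1 library.

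The input controls, which the comparisons between groups used only to leave out peaks, had regions concentrated at the ends. In the WT input 27 of 71 regions were end regions (38.0%, exact Clopper-Pearson interval 26.8% to 50.3%), a density 6.57 times that of the interior, at 3.38 against 0.514 regions per 100 kb. In the flo8Δ input 26 of 80 were (32.5%, interval 22.4% to 43.9%), 5.16 times the interior density, at 3.25 against 0.630. Right ends held 21 and 19 of these regions and left ends 6 and 7. In each input 16 lay within 25 kb of an end, and 6 in each overlapped a FAIRE peak.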

How the results depend on the processing

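With the higher-scoring 50% of each list, the covered share turned to 0.0182 points above the interior and the right end of chromosome 3 to 0.276 peaks per 100 kb above it. Pairs of ends that passed numbered 6, and there were 28 end loci. Of these, 3 had an unadjusted Fisher's exact p under the threshold, 1 was in all 10 libraries, 5 in all 6 WT lists and 3 in all 4 flo8Δ lists. In all WT slow and switchback lists but not fast there was 1, and in switchback only 3. Except where a percent of loci is printed, counts of end loci in these alternatives are given without their share over all nuclear loci. Such counts are not read as particular to the ends. With the 149 best peaks of each list, the covered share was 0.0505 above and the right end of chromosome 1 was 0.0962 above the interior. There were then 26 end loci, of which 3 had a low unadjusted p, 1 was in all 10 libraries, 6 were in all WT lists and 3 in all flo8Δ lists. In that setting 2 end loci passed after adjustment (Fisher's exact adjusted p = 0.0375, with 12.7% of 339 loci called), chr1:49407-50594 and chr3:2173614-2175614, each in 6 WT and 0 flo8Δ lists.

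Without peaks over input, the end minus interior difference passed for density (-0.966), covered share (-0.318) and width (53.5 bp), 17 pairs of ends passed, and 4 right was at -2.58. With ends of 50 kb, density (-0.937) and covered share (-0.348) passed, as did 7 of the 8 ends, with 4 left at 2.16. With ends of 25 kb, 4 left was at 2.19, 4 right at 0.589, and the strain difference in share was -0.88 (exact p = 0.0556). Without the outermost 10 kb, the covered share was 0.0728, 1 right 0.210 and 3 right 0.322 above the interior. When presence asked for peaks over 50% of a locus, which narrow flo8Δ peaks seldom cover, 12 end loci passed after adjustment (18.0% of all loci did), 18 before it, 33 were in WT only, and 0 were in all 10 libraries or all flo8Δ lists. The causes of these changes were not tested in any setting. Leaving out chromosome 4 right, chosen after seeing the data, gave a strain difference of -2.43 (exact p = 0.0185).

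Leaving out each library in turn gave -3.68 to -2.32 for the strain difference in share, 2 to 4 for the number of ends that differed from the interior, -0.170 to 2.92 for the score rank difference, -0.383 to 0.0650 for 1 right and -0.250 to 0.231 for 3 right. Loci numbered 5 to 9 in all 10 libraries, 8 to 14 in all flo8Δ lists, 9 to 16 in WT only, 3 to 8 in flo8Δ only, 0 to 4 in WT slow and switchback only, 0 to 1 in slow only, 1 to 5 in switchback only, and 2 to 7 with a low unadjusted p.

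The replicate block, pairing libraries of the same stage and number, gave a strain difference of -3.25 (exact p = 0.125, the smallest 4 pairs allow) and left the WT stage test at 1.34 points (exact p = 0.5). The deviations of same-numbered libraries showed little correlation (r from -0.08 to 0.12 across loci, which are not independent). The flo8Δ slow and switchback groups, with 1 library each, could not enter these correlations, but both entered the paired strain difference. These values cannot tell whether libraries of the same number came from the same chemostat. Of all alternative values, 354 kept their direction and side of the threshold or, for counts, stayed within 1.5 times, 45 counts moved further, 27 lost and 10 gained a call, and 19 changed sign. With no read counts, what depth limits cannot be given.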

Other observations

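The right end of chromosome 3 held a cluster of neighbouring open loci between about 78 and 83 kb from the end. The loci chr3:2172617-2173597 and chr3:2173614-2175614 were parted by 16 bp, and chr3:2176982-2178285 began 1367 bp beyond. The middle locus was held by 9 libraries and ranked 5, 8, 49, 110, 34 and 21 in WT, in the order fast, slow, switchback, and 207, 224 and 450 in flo8Δ fast and slow. The first of them was in WT slow 2 and both switchback lists only, at ranks 177, 205 and 195. The right end of chromosome 1 held a similar set, in which chr1:2815349-2816274 lay 882 bp from the locus at 77.5 kb that every library held.

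Left and right ends held 64 and 78 peaks in WT, and 39 and 40 in flo8Δ. Right ends held more in 7 of 10 libraries, by 1.50 ± 2.32 peaks (exact two-sided sign-flip permutation test, p = 0.0938). At the left end of chromosome 2, chr2:78005-79456 was in 4 WT libraries, at ranks 125 and 66 at fast, 40 in slow 1 and 85 in switchback 2, and in no flo8Δ library.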
